A study of Mus musculus with 8 samples.

Results

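The 7 heat shock genes described here, 5 of the cytosolic HSP70 and HSP90 chaperone families, 1 of a J-domain cochaperone and 1 of the mitochondrial chaperonin, were followed through an RNA immunoprecipitation sequencing (RIP-seq) experiment, which reads the RNA that an antibody against a protein brings down together with that protein. The 7 members, Hspa8 (ENSMUSG00000015656), Hspa1a (ENSMUSG00000091971), Hspa1b (ENSMUSG00000090877), Dnajb1 (ENSMUSG00000005483), Hsp90aa1 (ENSMUSG00000021270), Hsp90ab1 (ENSMUSG00000023944) and Hspd1 (ENSMUSG00000025980), were picked by Ensembl gene ID out of 54838 IDs. The lysates came from dissociated cortical cells of C57BL/6 mouse embryos at embryonic day 12.5. In 1 group, 4 pull-downs used a rabbit antibody against Exosc10, a 3′ to 5′ exoribonuclease of the nuclear RNA exosome, and in the other group 4 mock pull-downs used normal rabbit IgG. No genetic change or drug treatment is named for either group, and the labels do not say which embryos or litters stand behind a library, so that p-values speak of the spread between the libraries at hand and that spread may be technical. No input library was analysed here, and a scaled value is a portion of what its pull-down held, so that a higher value is a larger portion and not a larger recovered amount. Markers of the cortex and of other cell types could not be checked, because the reference table used for names held no Ensembl IDs and 0 of the 54838 IDs matched it.

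Heat shock proteins are molecular chaperones that help other proteins to fold and keep unfolded ones from clumping. Under heat or other protein stress the transcription factor HSF1 binds heat shock elements, short repeats of GAA and its complement TTC, and switches on the inducible members, while the constitutive members are made at all times. HSP70 works in a cycle of ATP hydrolysis that J-domain proteins start, and it hands many clients on to HSP90; in mitochondria imported proteins fold inside the HSP60 chamber. In the embryonic nervous system the constitutive members serve growing and dividing cells.

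The pair Hspa1a and Hspa1b is shown first by sequence, because near-identical copies limit what counts can tell about either gene. Of the 7 members 4 were matched in the RefSeq table of promoters, build GRCm38.p6, the same assembly as the mm10 build of the counts; Hspa8, Hsp90aa1 and Hsp90ab1 were not. Below are the 250 bases before the annotated start of each copy, both on the minus strand, at chr17:34972157-34972406 for Hspa1a and chr17:34959239-34959488 for Hspa1b. Capitals mark the letters GAANNTTC, a pair of heat shock units that reads the same on both strands.
Hspa1a: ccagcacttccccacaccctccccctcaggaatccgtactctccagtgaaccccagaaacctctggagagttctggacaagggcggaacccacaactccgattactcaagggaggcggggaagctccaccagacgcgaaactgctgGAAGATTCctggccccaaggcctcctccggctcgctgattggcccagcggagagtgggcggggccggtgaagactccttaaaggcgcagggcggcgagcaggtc
Hspa1b: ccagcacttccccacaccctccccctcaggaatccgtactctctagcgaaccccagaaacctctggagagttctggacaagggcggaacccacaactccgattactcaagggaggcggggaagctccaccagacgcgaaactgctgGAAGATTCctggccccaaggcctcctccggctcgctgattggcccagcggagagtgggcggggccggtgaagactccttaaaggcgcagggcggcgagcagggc
The 2 stretches differ at 3 of 250 positions, an identity of 98.8% that is not itself the identity of the counted transcripts, and each holds 1 match, from 104 to 97 bases before the start. At least 1 such match was found in 6.69% of the 32851 promoter stretches of this length in the table. Hspd1 holds one before the downstream of its 2 listed starts, within the 30 bases at chr1:55088053-55088082 on the minus strand.
Hspd1: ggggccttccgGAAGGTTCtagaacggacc
Around it, overlapping matches to GAANNTTCNNGAA and to its reverse complement TTCNNGAANNTTC, runs of 3 units, are present, which 0.466% of stretches hold in either form. Neither motif was found in the stretches of Dnajb1, which says only that these letters are absent there. RIP counts do not measure what binds these promoters.

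The gene body of Hspa1a lies at chr17:34969359-34972156 and that of Hspa1b at chr17:34956429-34959238, with spans of 2798 and 2810 bases. Hspa8 lies at chr9:40801276-40805202, and 3 small nucleolar RNA genes, Snord14c, Snord14d and Snord14e, lie within its span. Hspd1, at chr1:55077833-55088243, overlaps the span of Hspe1, the gene of its co-chaperonin, and 23 pseudogenes in the table are named after it. Hsp90aa1 (chr12:110691036-110696395), Hsp90ab1 (chr17:45567778-45573261) and Dnajb1 (chr8:83608175-83612653) overlap no other gene of the table. The treatment of reads that fit several places and the strand setting are not given in the sources used here, so the split of reads between Hspa1a and Hspa1b, and between Hspd1, Hspe1 and the pseudogenes, is uncertain. Pseudogenes were sought only by a name or synonym built on the member's symbol. Whether reads of the other members also fit copies under other names was not examined. Transcript lengths were not used, so the count ratios between members below serve to compare libraries and do not say which mRNA was more abundant per length.

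The libraries held 20967743 to 34506709 counts in all, and the filter on low counts kept 16716 genes for the test. The libraries numbered 1 stood apart for several of these genes: 5 of the 7 members had their highest value in library 1 of the Exosc10 group, and 5 of 7 in library 1 of the IgG group. The share of all tested genes that were highest in library 1 was not computed, so these counts have no background beside them. Library 1 also had the lowest total of its group, 21731971 counts with Exosc10 and 20967743 with IgG. Levels are given in CPM, the count set against the total of its library after TMM scaling, which uses a trimmed mean of log ratios to make libraries comparable. Hspa1b in Exosc10 library 1 was 3.72 times the mean of its group's other libraries, and 4.61 times in IgG library 1. For Hsp90ab1 these folds were 1.95 and 1.76, for Hspa8 1.82 and 1.78, and for Dnajb1 1.92 and 1.38. Across all tested genes the median fold was 0.994 in the Exosc10 and 1.00 in the IgG group, with 16.5% and 18.2% of genes above 1.5. Hspd1, at 0.986 and 1.05, lay close to those medians, and Hsp90aa1 was at 1.07 and 1.36. The fold changes of the tested members and the ratios between members are therefore given with all libraries and without both libraries numbered 1. These libraries were singled out by the members' own values. Smaller SEs and less overlap without them follow in part from that choice, so those values are descriptions and not a further test.

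**Figure D1:**
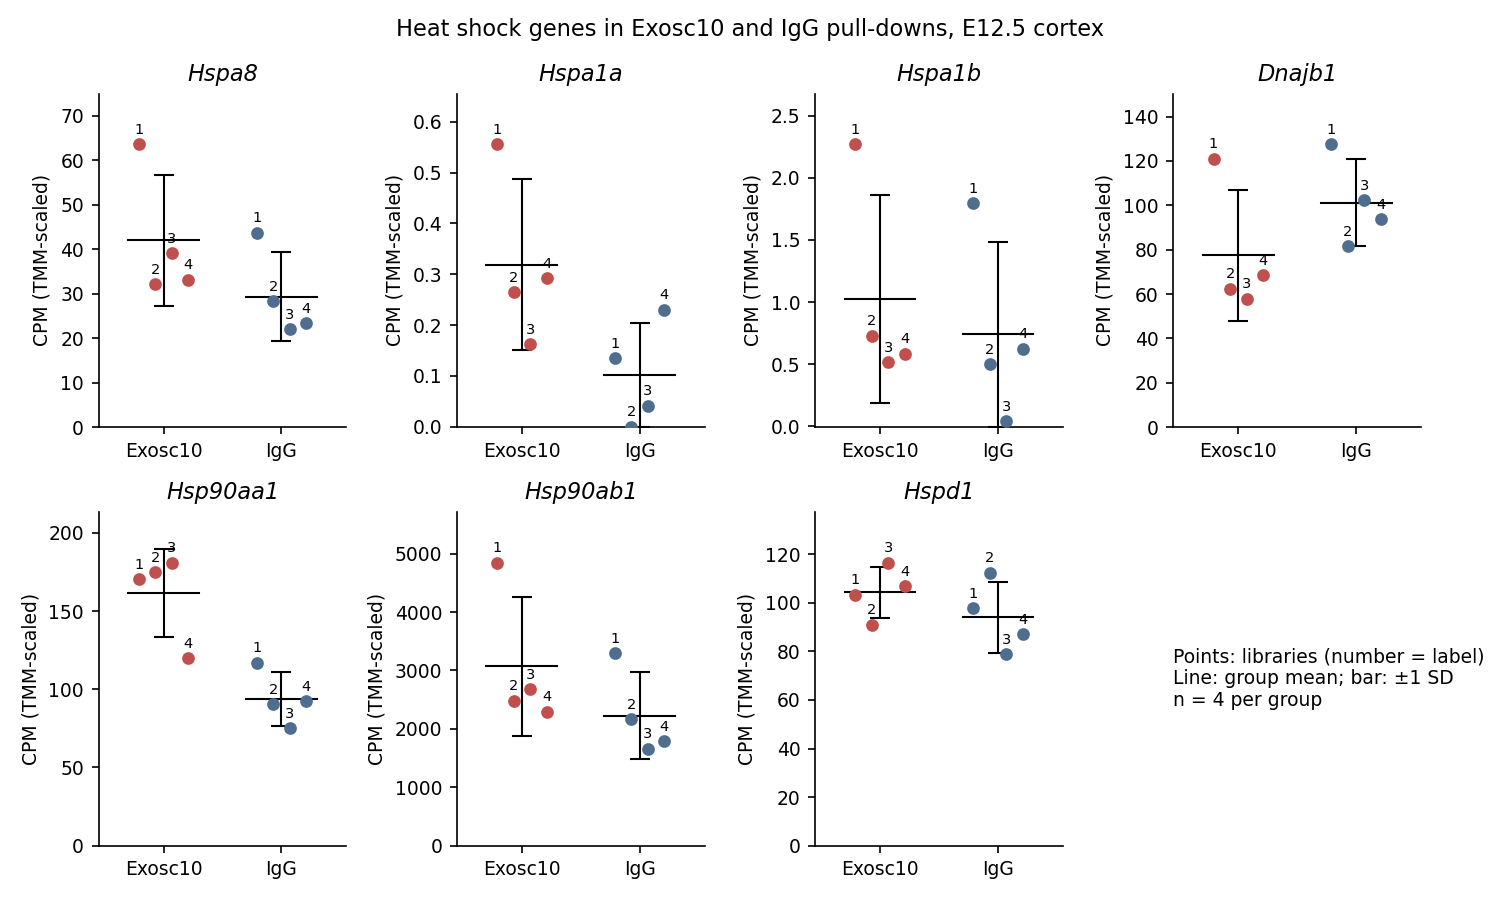
Share of each pull-down taken by the 7 heat shock genes, in CPM after TMM scaling, for the 4 Exosc10 and the 4 IgG libraries; points are libraries with their number, the line is the mean and the bar 1 SD to either side. Only Hsp90aa1 has all Exosc10 values above all IgG values, and library 1 is the highest of its group in Hspa8, Hspa1b, Dnajb1 and Hsp90ab1 in both groups.

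The question was which of these mRNAs took a different share of the Exosc10 than of the mock pull-down. One of the 6 tested members, Hsp90aa1, was higher with Exosc10 and 0 of 6 were lower, by the quasi-likelihood test of edgeR with p-values adjusted over all genes and read at 0.05. The background of calls was 7.92% higher and 5.82% lower among all genes tested, so that 1 in 6 is a small count to set against the background. At an unadjusted p under 0.05 the count was the same, 1 higher and 0 lower. The share of all tested genes at that threshold was not computed, so this count has no background beside it. The median log2 fold change, Exosc10 over IgG, was 0.46 over the 6 tested members and -0.03 over all tested genes. Of the 6 fitted values 5 were positive and that of Dnajb1 was negative. This fit did not pair libraries of the same number, although for all 8 the best match in the other group had the same number. The count of 1 higher and 0 lower depends on that choice. With the replicate number as a block, edgeR called 3 members higher and 1 lower. Among all tested genes the block called 2489 higher and 2006 lower, against 1324 and 973 in the main fit.

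Hsp90aa1 encodes the stress-inducible cytosolic HSP90, a chaperone of kinases and steroid receptors. Its level was 170, 175, 181 and 120 CPM in Exosc10 libraries 1 to 4 and 117, 90.3, 75.1 and 92.3 CPM in IgG libraries 1 to 4. The lowest Exosc10 library, number 4, thus lay just above the highest IgG library, number 1, and the groups did not overlap, as in 19.1% of all tested genes. The means were 161 ± 28.1 and 93.7 ± 17.3 CPM (SD, n = 4 each). The log2 fold change was 0.79 ± 0.19 (SE), a 1.72-fold difference, whose 95% confidence interval ran from 0.37 to 1.20 (edgeR adjusted p = 0.0187). It stood above 93.4% of all tested genes and above 92.2% of the genes in its own decile of abundance. The fold stayed between 0.70 and 0.92 (log2) without any single library, but the edgeR adjusted p rose to 0.0623 without Exosc10 library 2, 0.0504 without Exosc10 library 3, 0.0542 without IgG library 2, 0.0658 without IgG library 3 and 0.0603 without IgG library 4. Without both libraries numbered 1 the log2 fold change was 0.88 ± 0.16 (SE, edgeR adjusted p = 0.000909).

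Hsp90ab1 encodes the constitutive HSP90 of the cytosol, and its mRNA ranked 7 among the 16716 tested genes by mean CPM, which is not scaled by length. It was measured at 4841, 2479, 2676 and 2292 CPM in Exosc10 libraries 1 to 4 and at 3293, 2167, 1660 and 1789 CPM in IgG libraries 1 to 4. IgG library 1 exceeded 3 of the 4 Exosc10 libraries, so the groups overlapped. The means were 3072 ± 1190 and 2227 ± 742 CPM (SD, n = 4 each), and a log2 fold change of 0.46 ± 0.27 (SE), with an interval from -0.12 to 1.05, did not pass (edgeR adjusted p = 0.271). Without both libraries numbered 1 the remaining values were 2281 to 2647 CPM against 1645 to 2146 CPM and no longer overlapped. The log2 fold change was then 0.41 ± 0.14 (SE, edgeR adjusted p = 0.0410). With only Exosc10 library 1 left out it was 0.17 ± 0.22 (SE, edgeR adjusted p = 0.654), and with only IgG library 1 left out 0.72 ± 0.25 (SE, edgeR adjusted p = 0.0575). With all libraries and the replicate number as a block it passed, at 0.45 ± 0.15 (SE, edgeR adjusted p = 0.0372).

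The 2 cytosolic HSP90 genes were also compared within each library, where no scaling enters. Hsp90ab1 had 28.4, 14.2, 14.8 and 19.1 times the counts of Hsp90aa1 in Exosc10 libraries 1 to 4, and 28.2, 24.0, 22.1 and 19.4 times in IgG libraries 1 to 4. Library 1 thus gave nearly the same value in both groups, and the groups overlapped. The log2 ratio of Hsp90aa1 to Hsp90ab1 differed by 0.34 between the groups, less than could be told from the spread (exact two-sided permutation test over 70 assignments, p = 0.229, adjusted p = 0.457 over 4 ratios). It was 0.45 without both libraries numbered 1, 0.54 without Exosc10 library 1 and 0.21 without Exosc10 library 2. The permutation tests of all 4 ratios treated the libraries as exchangeable. A likeness between libraries of the same number was not taken into account in them.

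**Figure D2:**
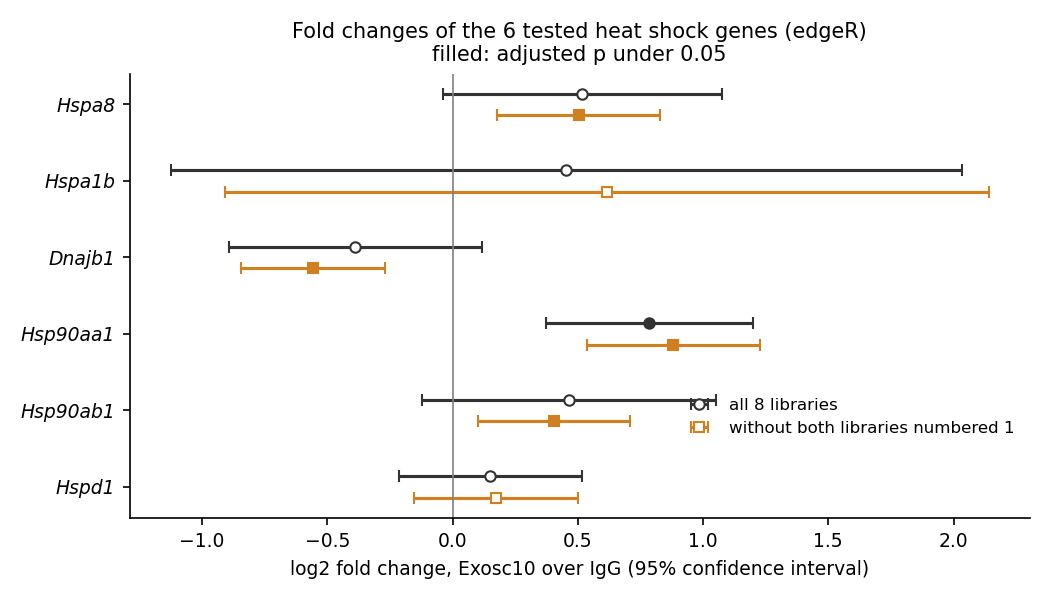
Log2 fold change of Exosc10 over IgG for the 6 tested heat shock genes, with 95% confidence intervals from edgeR, for all 8 libraries (circles) and without both libraries numbered 1 (squares); filled symbols have an adjusted p under 0.05. Only Hsp90aa1 is filled with all libraries, whereas Hspa8, Dnajb1, Hsp90aa1 and Hsp90ab1 are filled without the libraries numbered 1.

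Hspa8 encodes the constitutive HSP70 of the cytosol, HSC70, which also takes clathrin coats off vesicles. Its mRNA ranked 6691 among the 16716 tested genes by mean CPM, which is not scaled by length. Whether reads of Hspa8 also fit copies elsewhere was not examined, so this rank and the count ratios to Hspa8 need not reflect its abundance. Its values were 63.6, 32.2, 39.2 and 33.2 CPM in Exosc10 libraries 1 to 4 and 43.7, 28.3, 22.1 and 23.3 CPM in IgG libraries 1 to 4. Here too IgG library 1 lay above Exosc10 libraries 2, 3 and 4. The means were 42.0 ± 14.7 and 29.4 ± 9.96 CPM (SD, n = 4 each). The fitted log2 difference of 0.52 ± 0.26 (SE), whose interval runs from -0.04 to 1.07, did not pass (edgeR adjusted p = 0.195). It passed without IgG library 1 (0.78 ± 0.24, SE, edgeR adjusted p = 0.0344) and fell to 0.26 ± 0.22 (SE, edgeR adjusted p = 0.457) without Exosc10 library 1. Without both, the remaining values of 31.7 to 38.7 and 21.9 to 28.0 CPM did not overlap, and the log2 fold change was 0.50 ± 0.15 (SE, edgeR adjusted p = 0.0207). With all libraries and the replicate number as a block it passed, at 0.52 ± 0.15 (SE, edgeR adjusted p = 0.0215).

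Dnajb1 encodes HSP40, the J-domain protein that delivers clients to HSP70 and starts its ATP hydrolysis, and it was the only tested member with a negative fitted value. It measured 121, 62.4, 57.9 and 68.4 CPM in Exosc10 libraries 1 to 4 against 127, 81.4, 102 and 93.7 CPM in IgG libraries 1 to 4. Exosc10 libraries 2, 3 and 4 lay below every IgG library, and Exosc10 library 1 lay above 3 of them. The means were 77.4 ± 29.3 and 101 ± 19.5 CPM (SD, n = 4 each). The fitted log2 difference was -0.39 ± 0.24 (SE) and did not pass, its interval running from -0.89 to 0.12 (edgeR adjusted p = 0.286). Without Exosc10 library 1 it was -0.68 ± 0.17 (SE, edgeR adjusted p = 0.0201). It shrank to -0.25 ± 0.24 (SE, edgeR adjusted p = 0.480) without IgG library 1 and to -0.27 ± 0.25 (SE, edgeR adjusted p = 0.529) without Exosc10 library 3. Without both libraries numbered 1 it was -0.56 ± 0.13 (SE, edgeR adjusted p = 0.00564), at 57.2 to 68.0 CPM with Exosc10 and 80.6 to 101 CPM with IgG. With all libraries and the replicate number as a block it passed, at -0.43 ± 0.15 (SE, edgeR adjusted p = 0.0465).

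Dnajb1 was next set against Hspa8 within each library, with all libraries kept. The count of Dnajb1 was 1.90, 1.94, 1.48 and 2.06 times that of Hspa8 in Exosc10 libraries 1 to 4 and 2.91, 2.87, 4.64 and 4.02 times in IgG libraries 1 to 4. Every Exosc10 library was below every IgG library, the libraries numbered 1 included, as in 12.8% of the other tested genes set against Hspa8 in either direction. The mean log2 ratio was 0.87 ± 0.21 with Exosc10 and 1.82 ± 0.34 with IgG (SD, n = 4 each), a difference of -0.95. The exact two-sided permutation test gave p = 0.0286, the smallest that 4 against 4 libraries allow, and 0.114 after adjustment over the 4 ratios, which does not pass. The other ratios had exact permutation p-values of 0.229 or more. Beside them no smaller adjusted value was possible, so this ratio could not have passed however far apart the groups were. The difference was -1.05 to -0.82 with any single library left out and -1.06 without both libraries numbered 1. There an exact permutation test of 3 against 3 libraries cannot go below p = 0.1.

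**Figure D3:**
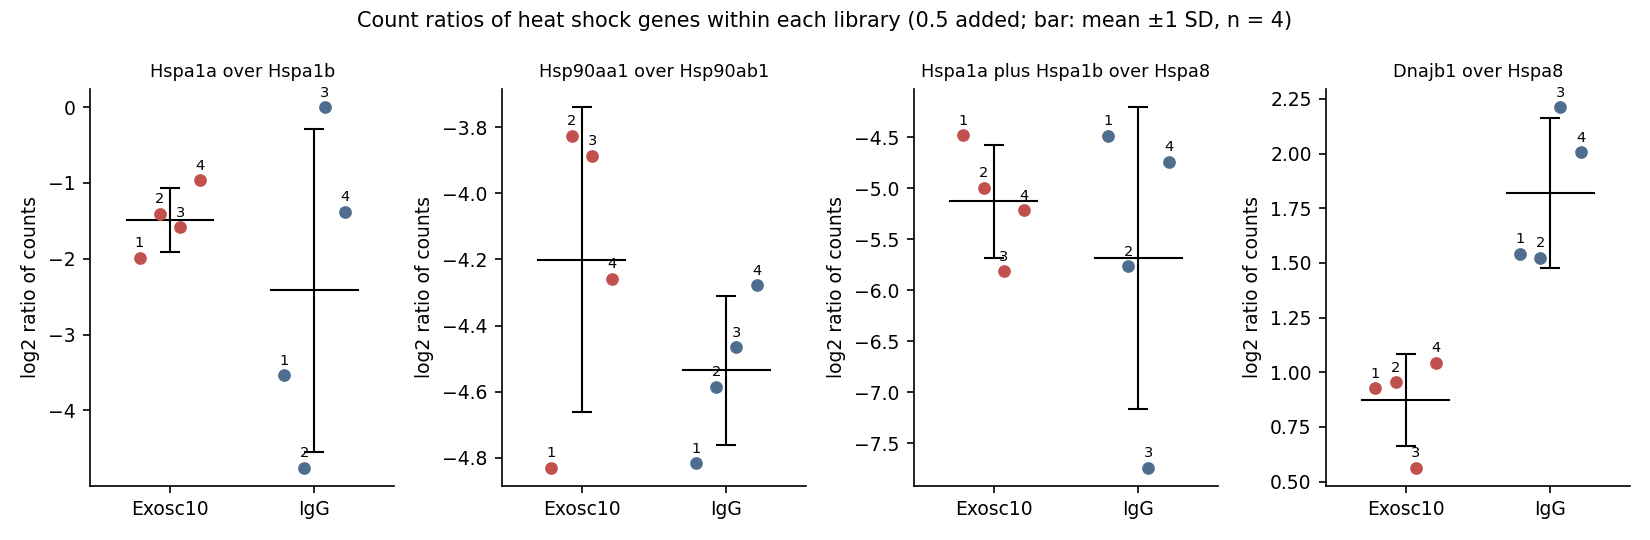
Log2 ratio of the counts of members within each library, for 4 Exosc10 and 4 IgG libraries. To either side of a ratio 0.5 was added, for the Hspa1 pair to its summed count. Points are libraries with their number, the line is the mean and the bar 1 SD to either side. The ratio of Dnajb1 to Hspa8 is the only one of the 4 in which the groups do not overlap.

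Hspa1a and Hspa1b encode near-identical stress-inducible HSP70 proteins, from genes without introns. Both were scarce in every library. Hspa1b had 49, 22, 16 and 20 counts in Exosc10 libraries 1 to 4 and 40, 13, 1 and 19 in IgG libraries 1 to 4. The spread between libraries was wide: within the IgG group CPM values ran from 0.0413 in library 3 to 1.79 in library 1. Its fitted log2 difference was 0.45 ± 0.74 (SE, edgeR adjusted p = 0.720). The interval from -1.13 to 2.03 leaves a rise or a fall of more than 2-fold possible, and the value was -0.25 ± 0.78 (SE, edgeR adjusted p = 0.859) without Exosc10 library 1 and 0.07 ± 0.64 (SE, edgeR adjusted p = 0.960) without IgG library 3, and it was 1.34 ± 0.76 (SE, edgeR adjusted p = 0.222) without IgG library 1. The value was 0.62 ± 0.71 (SE, edgeR adjusted p = 0.547) without both libraries numbered 1. Its biological coefficient of variation was 0.682, against 0.455 for the trend at its abundance.

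Hspa1a did not pass the filter on low counts and is the 1 member without a test. It had 12, 8, 5 and 10 counts in Exosc10 libraries 1 to 4 and 3, 0, 1 and 7 in IgG libraries 1 to 4, sums of 35 and 11. The groups overlapped, since IgG library 4 lay above Exosc10 library 3 in CPM, at 0.230 against 0.162. The count of 0 in IgG library 2 allows up to 3 counts, or 0.116 CPM, counting error only. When every gene with a count was tested, its log2 fold change was 1.61 ± 1.02 (SE, edgeR adjusted p = 0.372). With the counts of both copies summed, the fitted value was 0.66 ± 0.69 (SE, edgeR adjusted p = 0.550). Both fitted values were smaller than 2 SEs, so no difference in the inducible HSP70 mRNAs could be told from the spread between libraries.

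In neither ratio that involves the inducible pair were the groups apart. Hspa1a had fewer counts than Hspa1b in every library but IgG library 3, where each had 1. The log2 ratio of Hspa1a to Hspa1b was -1.49 ± 0.42 with Exosc10 and -2.42 ± 2.13 with IgG (SD, n = 4 each; exact permutation p = 0.457, adjusted p = 0.610). The other ratio had 0.5 added to the count of Hspa8 and to the summed count of the inducible pair. Hspa8 then stood at 22.3 to 56.3 times the pair in the Exosc10 libraries and at 22.4 to 213.8 times in the IgG libraries. The multiple was lowest in library 1 of either group and highest in IgG library 3, where the added 0.5 weighs most (exact permutation p = 0.629, adjusted p = 0.629). Without both libraries numbered 1 the differences in these log2 ratios, Exosc10 minus IgG, were 0.73 and 0.74, against 0.93 and 0.56 with all libraries. Single libraries moved them further: the first was 0.15 without IgG library 2, 0.56 without IgG library 1 and 1.74 without IgG library 3, and the second was 0.34 without Exosc10 library 1, -0.13 without IgG library 3, 0.96 without IgG library 1 and 0.87 without IgG library 4.

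Hspd1 encodes HSP60, the chaperonin of the mitochondrial matrix. It measured 103, 91.0, 116 and 107 CPM in Exosc10 libraries 1 to 4 and 97.8, 112, 78.8 and 87.2 CPM in IgG libraries 1 to 4. The groups overlapped, and the spread within a group, 10.1% of the mean with Exosc10 and 15.4% with IgG, was the narrowest of the 7 members. The log2 fold change was 0.15 ± 0.17 (SE), and its interval of -0.21 to 0.51 holds no 1.5-fold difference; the edgeR adjusted p was 0.588. Without both libraries numbered 1 it was 0.17 ± 0.15 (SE, edgeR adjusted p = 0.418).

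Without both libraries numbered 1, 3 of the 6 tested members, Hspa8, Hsp90aa1 and Hsp90ab1, were higher with Exosc10 and 1, Dnajb1, was lower (edgeR adjusted p under 0.05). The background rose as well, to 17.1% of 16963 tested genes higher and 15.1% lower. The groups of 3 did not overlap in these 4 members, as in 46.0% of all tested genes. The fold changes of Hspa8, Hsp90aa1 and Hsp90ab1 stayed close to those with all libraries, while their SEs were smaller. With all 8 libraries but limma-voom with sample weights, the same 4 members were called, 3 higher against 20.1% of all tested genes and 1 lower against 18.0%. They were also the ones called when edgeR took the replicate number as a block, 3 higher against 14.9% and 1 lower against 12%. With only IgG library 1 left out, 2 members were higher, Hspa8 and Hsp90aa1, against 13.0% of genes. With only Exosc10 library 1 left out, 1 was higher, Hsp90aa1, against 9.52% of genes, and 1 was lower, Dnajb1, against 6.55%.

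**Figure D4:**
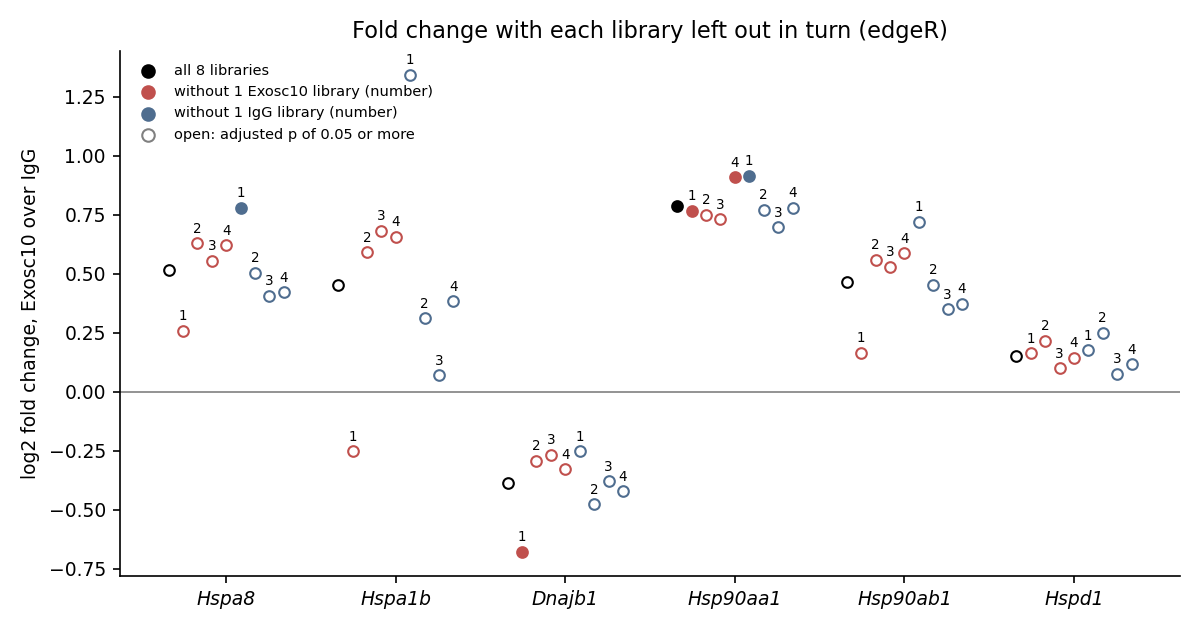
Log2 fold change of Exosc10 over IgG from edgeR for the 6 tested heat shock genes with all libraries (black) and with each library left out in turn (red for an Exosc10, blue for an IgG library, with its number); filled points have an adjusted p under 0.05. Leaving out Exosc10 library 1 gives the lowest value for Hspa8, Hspa1b, Dnajb1 and Hsp90ab1, and leaving out IgG library 1 gives the highest.

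The mean profile of the 7 members, each centred on its own mean log2 CPM, was 0.87, 0.07, 0.03 and 0.00 in Exosc10 libraries 1 to 4 and 0.37, -0.39, -0.78 and -0.17 in IgG libraries 1 to 4. Every member had the same weight. The scarce Hspa1a and Hspa1b, with 1 count each in IgG library 3, therefore weigh heavily on this profile and on the similarity below. The most similar of the other tested genes over the 8 libraries were ENSMUSG00000020773, with a Pearson correlation of 0.992 and a mean of 2.66 CPM, and ENSMUSG00000040472, with 0.988 and 32.8 CPM. These are descriptions of points that share libraries and depth. Their own log2 fold changes, 0.76 ± 0.41 and 0.41 ± 0.22 (SE), did not pass (edgeR adjusted p = 0.231 and 0.229). They are named by ID because no symbol was matched.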

How the data were processed

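The authors deposited 1 file per library with a read count for each of 54838 Ensembl gene IDs, not normalized. Per the submitters' processing notes reads were handled with featureCounts 1.5.0-p1, STAR 2.5.2a and bcl2fastq 2.17.1.14 on build mm10; the annotation release was not given in the sources used here. Groups and numbers came from the sample titles. The members and lists were chosen with earlier results of these data known; all 7 members are named, and the 2 genes most correlated with their mean profile. Member symbols follow the pairing of IDs and names that defined the gene set. The lists of other chaperones, cochaperones and cell type markers, fixed by symbol, could not be matched and were not analysed here.

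The test was run in R 4.3.3 with edgeR 4.0.16: filterByExpr (minimum count 10, total 15), TMM scaling, and a quasi-likelihood F-test over all 16716 genes and 8 libraries with no covariate, adjusted by Benjamini-Hochberg and read at 0.05. The SE is the fold change divided by the root of F. Ratios within libraries had 0.5 added to the count on either side, for the Hspa1 pair to its summed count. The fit was also run on simulated counts with set fold changes. These counts held no effect shared by libraries of the same number, so that run does not speak to the choice of an unpaired fit. Alternatives used limma 3.58.1 (voom with sample weights), DESeq2 1.42.0, other scalings and filters, the replicate number as a block, and fewer libraries.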

Additional observations from a re-analysis of the deposited data

Results flagged for a closer look

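Exosc10 library 1 lay far above the other 3 Exosc10 libraries in 3 members by Dixon's test at the 95% level. It stood at 4841 CPM for Hsp90ab1, where the others reached 2676, at 121 CPM for Dnajb1, where they reached 68.4, and at 2.27 CPM for Hspa1b, where they reached 0.729. In all, 22 groups of 4 values were examined, 14 of member levels and 8 of ratios, and chance flags about 1 in 20. IgG library 1 was the highest of its group in the same genes, at 3293, 127 and 1.79 CPM, without passing the test. None of the 8 groups of ratios was flagged. The cause was not tested.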

How the results depend on the processing

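Hsp90aa1, Hspa8, Hsp90ab1, Dnajb1 and Hspd1 kept the sign of their fold change in all 17 alternatives. Hspa1b kept it in 16 of 17 and lay between -0.25, without Exosc10 library 1, and 1.34, without IgG library 1. Its 17 differ from those of the other genes. They lack the filter at a mean of 5 CPM, which it did not pass, and include the summed counts of Hspa1a and Hspa1b. The log2 ratio of the summed Hspa1 pair to Hspa8 ran from -0.13 without IgG library 3 to 0.96 without IgG library 1, against 0.56. Hsp90aa1 passed in 12 of 17, failing without each of 5 libraries. With limma-voom 3 members were higher and 1 lower (all genes: 3363 and 3011), with the replicate block 3 and 1 (2489 and 2006), and without both libraries numbered 1 also 3 and 1 (2908 and 2555). DESeq2 gave 1511 lower genes against 973. Leaving out 1 library gave 0 to 2 members higher and 0 to 1 lower, and 588 to 2218 genes higher and 261 to 1828 lower. The cause was not tested.

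The deviations of same-numbered libraries from their group means correlated at 0.34, 0.095, 0.34 and 0.22 (numbers 1 to 4). All are positive, but 1 of these is just under 0.1, the cut that every number had to exceed. By that rule the main fit and the permutation tests did not pair the libraries. The calls depend on this cut: edgeR called 4495 genes in all with the block and 2297 without it. Still, for all 8 the best match in the other group had the same number, so results that treat the libraries as unpaired carry that limit. Under the replicate block the log2 fold changes and edgeR adjusted p were 0.52 and 0.0215 for Hspa8, 0.78 and 0.00428 for Hsp90aa1, 0.45 and 0.0372 for Hsp90ab1, and -0.43 and 0.0465 for Dnajb1. Hspa1a had at most 12 counts in a library and Hspa1b at most 49.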
